A study of Capra hircus with 3 samples.

Results

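The cell proliferation genes described here are 47 genes of the cell division cycle, listed by name for their known roles. Each was looked up by the goat NCBI gene ID of its symbol, and 32 of the 47 had a row with values, among 13023 protein-coding genes in all. By role, 11 of 13 genes of S phase were found, 14 of 26 of G2 and mitosis, 5 of 6 of G1 control, and both inhibitors of cyclin-dependent kinases. Not analysed here, for want of a matched row, were CDC6 and GINS2 of S phase, CCNE2 of G1 control, and CCNB1, CDC25B, AURKA, AURKB, CDCA8, BIRC5, BUB1, TTK, NDC80, CENPE, KIF11 and KIF23 of mitosis. No locus of the 50041 in the file had its highest value under 0.674 FPKM, so a gene below that level in each library would not be seen. Only the 15274 loci with a single gene ID were matched, so a gene without a row was not shown to be below that level. The genes described are therefore those that had such a row and passed this limit in at least 1 library. A gene that passed it in a single library had to differ there.

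Mammary gland was sampled by surgery from 5 Laoshan dairy goats, 4 years old and in lactation number 3, at 10, 90 and 210 days after parturition. RNA of the 5 goats was mixed in equal parts at each stage, and 1 library was made from each mixture. They are called here the E library (labelled early lactation), the P library (labelled peak lactation) and the L library (labelled late lactation). The goats were under general anaesthesia with Xylazine Hydrochloride at sampling. Whole tissue was used, so that fewer dividing cells and less RNA per cell cannot be told apart. With 1 library per stage there is no spread between replicates, no test was made, and "higher" and "lower" compare these 3 libraries. Values are in FPKM, a count of sequenced fragments scaled to the length of the transcript and to the size of the library, so that levels can be set side by side between genes. Read numbers per gene are unknown, and with them the precision of each value. Values of 0 are given as listed, since LALBA, the milk protein alpha-lactalbumin, had 70053 FPKM in the E library and 15214 FPKM in the P library and was listed at 0 in the L library.

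The names of the P and L libraries rest on the sample labels alone. As a check, the direction of the difference between these libraries was compared for 140 annotated lncRNA genes with transcript lists published for the same libraries, and it was opposite for 120 of them. For mRNA transcripts, the authors report more down than up in peak lactation, and more up than down in late lactation, against the other stages. Here, by gene, 17.4% of protein-coding genes were at least 2-fold lower in L than in P and 8.56% higher. If the columns of P and L were exchanged, each statement below on the P library would hold for the L library and the reverse.

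The cell division cycle runs through G1, in which cyclin D and cyclin E kinases release E2F transcription factors, through S phase, in which the genome is copied, and through G2 into mitosis. Genes of S phase supply the replication fork and its nucleotides, and genes of mitosis build the spindle, attach chromosomes to it and time their separation. In the mammary gland the epithelium divides most in pregnancy and around parturition, and the lactating gland is made up mainly of cells that secrete and do not divide, with some cell turnover. Immune cells, vessel cells and stromal cells of the gland can also divide.

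Levels were low and differed by role. The S-phase genes had a median of 4.52 FPKM in the E library, 4.76 FPKM in the P library and 4.33 FPKM in the L library, whereas the medians of the mitotic genes were 1.02, 1.24 and 1.01 FPKM. Over all protein-coding genes the medians were 7.003, 7.21 and 6.78 FPKM. MKI67 encodes Ki-67, the widely used marker of dividing cells. It lay above 5.70% of protein-coding genes in the E library, 3.32% in the P library and 4.29% in the L library. By contrast, CCND3 lay above 90.2%, 90.4% and 90.2% of them. The summed FPKM of the 11 S-phase genes was 54.7 in the E, 68.1 in the P and 50.4 in the L library, and that of the 14 mitotic genes was 14.8, 20.5 and 13.8. S-phase genes thus summed to 3.70, 3.32 and 3.66 times the mitotic genes in the E, P and L libraries.

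**Figure D1:**
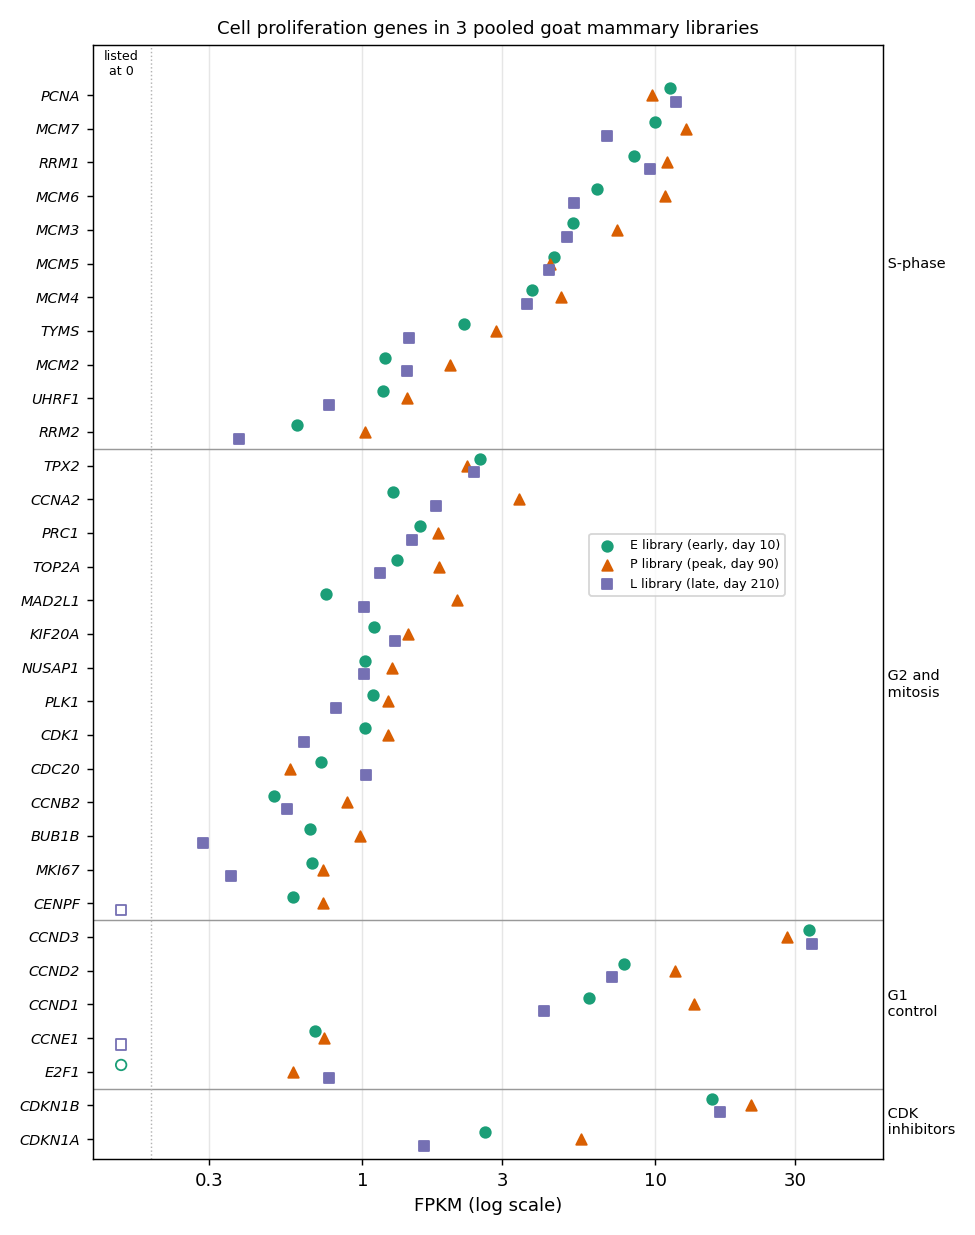
FPKM (log axis) of the 32 cell proliferation genes in the E, P and L libraries, 1 point per library, grouped by role and ordered by mean FPKM, with open symbols at the left for values listed at 0. The orange triangle of the P library is the rightmost point for 24 of the 29 genes above 0 in all libraries.

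Of the 29 genes above 0 in all 3 libraries, 24 were highest in the P library, against 43.4% of all protein-coding genes above 0 in all 3. That share depended on the level: it was 66.9% for a mean FPKM under 1, 64.9% from 1 to 2, 58.5% from 2 to 5, 44.3% from 5 to 10 and 25.3% at 10 and over, beside 5 of 6, 8 of 8, 4 of 6, 6 of 6 and 1 of 3 members. The L library was the lowest for 18 of the 29, against 38.2% of protein-coding genes. The order P over E over L was seen for 17 genes, against 30.3% of protein-coding genes. By role, the P library was the highest for 9 of 11 S-phase genes, 11 of 13 mitotic genes, 2 of 3 G1 genes and both kinase inhibitors. Among these, RRM2, BUB1B and CCNB2 passed the limit of 0.674 FPKM in P alone, so they could only be highest there.

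Differences of at least 2-fold were fewer, and the comparisons share libraries, so that their counts are not independent. Between the E and P libraries 5 of the 32 genes were at least 2-fold higher in P, among them E2F1, listed at 0 in E, and 0 were 2-fold lower. For all protein-coding genes the shares were 10.9% higher and 6.80% lower. Between the E and L libraries 3 genes were at least 2-fold lower in L and 1 was higher, and 3 of these 4 were listed at 0 in one library. The background shares were 6.74% lower and 1.97% higher. Between the P and L libraries 9 genes were at least 2-fold lower in L, 2 of them listed at 0 there, and 0 were 2-fold higher. The background shares were 17.4% lower and 8.56% higher. Among the 9, RRM2, BUB1B and CENPF passed the limit of 0.674 FPKM in P alone, so they could only be highest there. E2F1, the 1 gene at least 2-fold higher in L than in E, passed it in L alone.

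The proteins MCM2 to MCM7 form the ring-shaped helicase that is loaded on DNA in G1 and unwinds it in S phase, and each of these genes had values. MCM6, which spans 49200260 to 49235747 of scaffold NW_005100620.1, reached 6.34 FPKM in the E, 10.8 FPKM in the P and 5.28 FPKM in the L library. Its log2 ratio was 0.77 for P over E and -1.04 for L over P, so that P stood apart from both others. MCM7 followed the same order with 9.97, 12.7 and 6.84 FPKM, and its locus is shared with another entry of the file. MCM3 had 5.25, 7.41 and 4.998 FPKM and MCM4 3.80, 4.76 and 3.65 FPKM, again with P the highest and with E and L near each other. MCM2 was lower than these, with 1.19 FPKM in the E, 1.99 FPKM in the P and 1.42 FPKM in the L library. MCM5 differed from the other subunits, with 4.52, 4.37 and 4.33 FPKM, log2 ratios of -0.050 for P over E and -0.012 for L over P. The subunits of this complex were thus not shifted by the same amount between libraries.

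Genes of nucleotide supply showed the order P over E over L where they were low. RRM2 encodes the subunit of ribonucleotide reductase that is made in S phase, and it had 0.598 FPKM in the E, 1.02 FPKM in the P and 0.378 FPKM in the L library. This was a log2 ratio of -1.43 for L over P, the lowest among the S-phase genes, though RRM2 passed the limit of 0.674 FPKM in P alone. TYMS, thymidylate synthase, had 2.21, 2.86 and 1.44 FPKM, with a log2 ratio of -0.99 for L over P. RRM1, the large subunit of ribonucleotide reductase, was more abundant and closer between libraries, with 8.44, 10.98 and 9.56 FPKM. UHRF1, which helps to keep DNA methylation on the new strand, had 1.18, 1.41 and 0.769 FPKM. PCNA, the sliding clamp of the polymerases, went the other way, with 11.2 FPKM in the E, 9.71 FPKM in the P and 11.8 FPKM in the L library, log2 ratios of -0.21 for P over E and 0.28 for L over P. PCNA also serves in DNA repair. Over the 11 S-phase genes the median log2 ratio was 0.37 for P over E, -0.072 for L over E and -0.57 for L over P, while the medians over all protein-coding genes were 0.0066, -0.028 and -0.016.

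**Figure D2:**
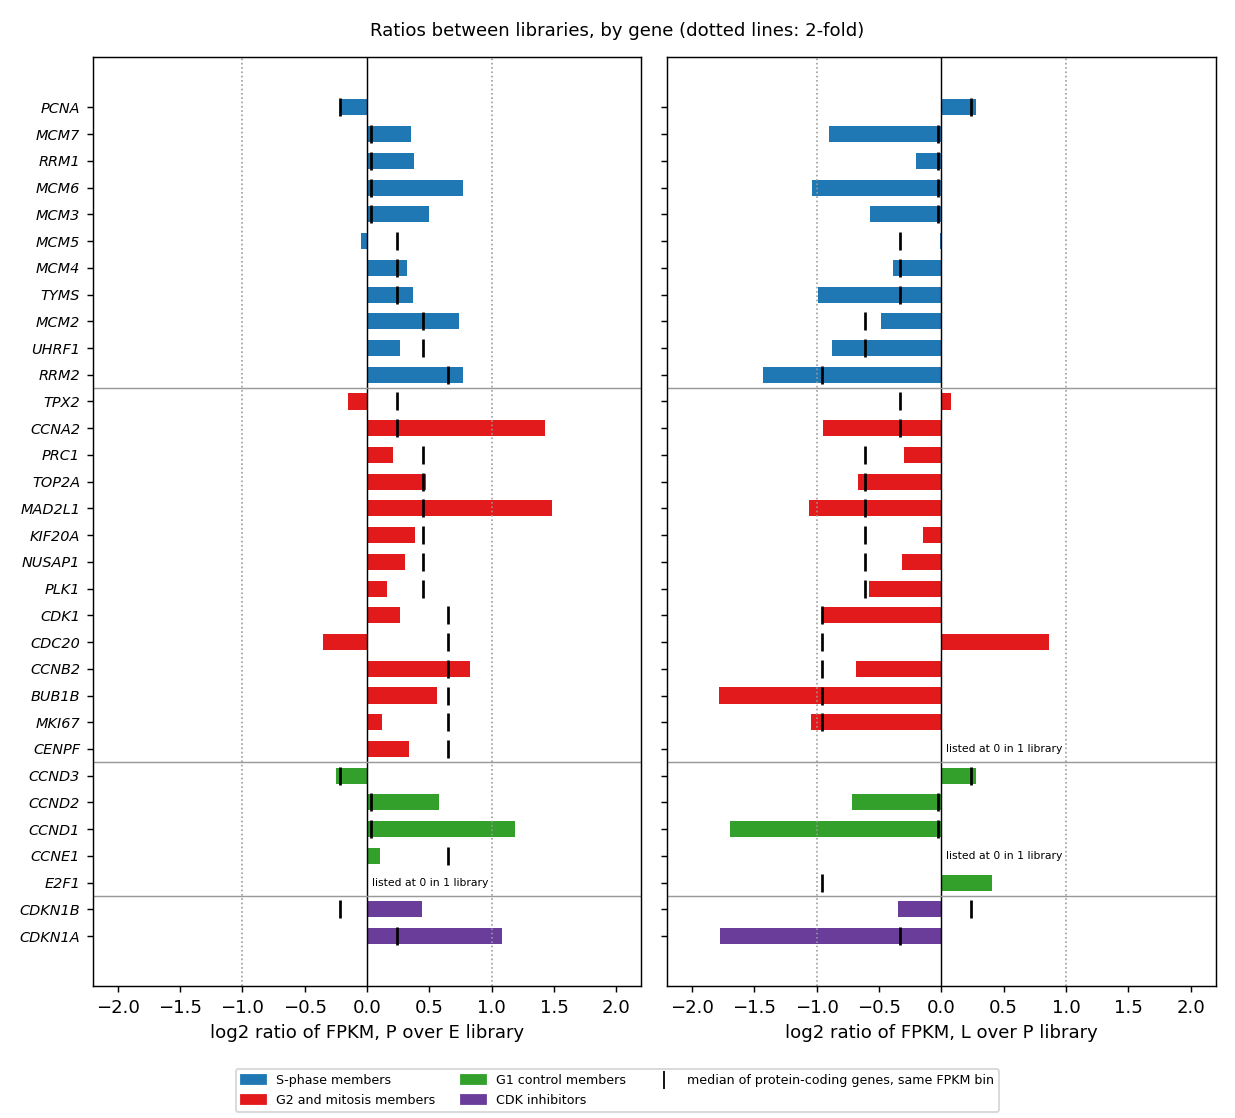
Log2 ratio of FPKM for P over E (left) and L over P (right), 1 bar per gene in the order of roles, with dotted lines at 2-fold and black ticks at the median of protein-coding genes in the same bin of mean FPKM. MCM6, MCM7 and CCND1 extend past their ticks on both sides, whereas many mitotic genes on the left end short of them.

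Among mitotic genes, the cyclin and kinase that drive entry into mitosis were low. CDK1, the kinase, had 1.02 FPKM in the E, 1.22 FPKM in the P and 0.633 FPKM in the L library. CCNA2, cyclin A2, which acts in S phase and G2, had 1.27, 3.43 and 1.78 FPKM, a log2 ratio of 1.43 for P over E and -0.94 for L over P. Its locus is shared with another entry of the file. CCNA2 was thus lowest in E and highest in P. CCNB2, cyclin B2, had 0.501, 0.889 and 0.555 FPKM, and PLK1, a kinase of mitotic entry and spindle poles, had 1.09, 1.22 and 0.815 FPKM.

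MKI67, at scaffold NW_005100948.1 from 18023220 to 18051143, had 0.675 FPKM in the E, 0.734 FPKM in the P and 0.356 FPKM in the L library. E and P were close, with a log2 ratio of 0.12, and L was lower than E by a log2 ratio of -0.92 and lower than P by -1.04. TOP2A, the topoisomerase that untangles sister chromosomes, had 1.31, 1.83 and 1.15 FPKM, with ratios of 0.48 for P over E and -0.67 for L over P. Both markers thus had their lowest value in L, MKI67 by more than TOP2A. Their ratios for L over P were near the medians of protein-coding genes of like mean FPKM. These were -0.95 under 1 FPKM, where MKI67 lay, and -0.61 from 1 to 2, where TOP2A lay.

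The spindle checkpoint genes did not share one pattern. MAD2L1, a checkpoint protein of unattached kinetochores, had 0.751 FPKM in the E, 2.105 FPKM in the P and 1.01 FPKM in the L library, a log2 ratio of 1.49 for P over E, the highest of all 31 genes above 0 in both. BUB1B, which encodes the checkpoint protein BubR1, had 0.664, 0.977 and 0.284 FPKM, and its log2 ratio of -1.78 for L over P was at the low end of all members, next to CDKN1A. Its locus is shared with another entry, and BUB1B passed the limit of 0.674 FPKM in P alone. CDC20, the activator of the anaphase-promoting complex that the checkpoint restrains, was highest in L, with 0.724, 0.566 and 1.03 FPKM, a log2 ratio of 0.87 for L over P.

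The spindle proteins TPX2, KIF20A and NUSAP1 were among the more even genes, as was PRC1 once its rows were summed. TPX2, which nucleates spindle microtubules, had 2.53, 2.27 and 2.40 FPKM in the E, P and L libraries. PRC1, which bundles microtubules of the central spindle, had 1.57, 1.81 and 1.48 FPKM as the sum of a pair of rows with the same coordinates, of which one was higher in E and the other in P. The rows had 1.13, 0.771 and 0.986 FPKM, and 0.442, 1.04 and 0.490 FPKM. KIF20A, a kinesin of cytokinesis, had 1.10, 1.43 and 1.29 FPKM, and NUSAP1, a spindle-associated protein, had 1.02, 1.27 and 1.02 FPKM. CENPF, a protein of the kinetochore, had 0.580 FPKM in the E and 0.733 FPKM in the P library and was listed at 0 in the L library, so that no ratio is given. Over the mitotic genes above 0 in both libraries the median log2 ratio was 0.32 for P over E (14 genes), -0.074 for L over E (13 genes) and -0.67 for L over P (13 genes).

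The G1 genes held both the most abundant and some of the least abundant members. CCND3, cyclin D3, was the most abundant member, with 33.4 FPKM in the E, 28.2 FPKM in the P and 34.2 FPKM in the L library, and was lowest in P. CCND1, cyclin D1, a cyclin needed for full lobule growth of the mammary gland in mice, lies at scaffold NW_005100978.1 from 495986 to 501804 and had 5.93, 13.5 and 4.17 FPKM. Its log2 ratio was 1.19 for P over E and -1.70 for L over P. CCND2, cyclin D2, had 7.81, 11.7 and 7.09 FPKM, with ratios of 0.58 and -0.72. The 3 D-type cyclins therefore did not have one order: CCND3 stayed ahead in every library, and CCND1 passed CCND2 in P alone. CCNE1, cyclin E1, had 0.689 FPKM in E and 0.741 FPKM in P and was listed at 0 in L. E2F1, the factor that turns on S-phase genes, was listed at 0 in E and had 0.579 FPKM in P and 0.766 FPKM in L.

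Both kinase inhibitors were highest in the P library, as most genes of the cycle itself were. CDKN1A encodes p21, which halts the cycle, and lies at scaffold NW_005100916.1 from 8337601 to 8345875. It had 2.63 FPKM in the E, 5.57 FPKM in the P and 1.62 FPKM in the L library, log2 ratios of 1.08 for P over E and -1.78 for L over P. CDKN1B, which encodes p27, a marker of resting cells, was more abundant and differed less, with 15.6, 21.2 and 16.6 FPKM and ratios of 0.44 and -0.35. In every library CDKN1B was above each S-phase and each mitotic gene with a value.

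The comparison of S-phase with mitotic genes depended on the level of the genes. Protein-coding genes of low FPKM were in general higher in the P library. In the bin of mean FPKM under 1, the median log2 ratio of protein-coding genes was 0.65 for P over E and -0.95 for L over P. It was 0.45 and -0.61 in the bin of 1 to 2, 0.24 and -0.33 from 2 to 5, 0.033 and -0.030 from 5 to 10, and -0.22 and 0.24 at 10 and over. In the bin under 1, 56.4% of protein-coding genes were at least 2-fold lower in L than in P, beside 5 of 9 members. From 1 to 2 the share was 36.0%, beside 1 of 8 members. Of the 5 members under 1, RRM2, BUB1B and CENPF passed the limit of 0.674 FPKM in P alone, so they could only be highest there.

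Set against the median of their own bin, a comparison chosen after the data were seen, the mitotic genes did not stand apart as a group. For P over E, 4 of 14 lay above the median of their bin and 10 below, with a median difference of -0.19. For L over P, 8 of 13 lay above and 5 below, with a median difference of 0.025. CCNA2 and MAD2L1 remained above the bin median for P over E, by more than 1 on the log2 scale each. The S-phase genes kept a part of their difference. For P over E, 9 of 11 lay above their bin's median, with a median difference of 0.13, and for L over P, 8 of 11 lay below, with a median difference of -0.27. RRM2 counts in both the 9 and the 8, though it passed the limit of 0.674 FPKM in P alone. In the bin of 5 to 10 FPKM, where protein-coding genes as a whole differed little, the 6 members were not all of S phase. They were MCM3, MCM6, MCM7 and RRM1 of S phase and CCND1 and CCND2 of G1 control. All 6 were highest in P, against 44.3% of protein-coding genes of the bin, and their median log2 ratio for L over P was -0.81 beside -0.030 for the bin. At least 2-fold lower in L than in P were 2 of the 6, against 11.5% of protein-coding genes of the bin. Of the 10 further S-phase genes in this bin, from the wider lists described below, 0 were. For L over E the medians of S-phase and mitotic genes differed from those of their bins by -0.041 and 0.079. Whether reads, length or composition of the libraries set the behaviour of low genes was not tested.

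**Figure D3:**
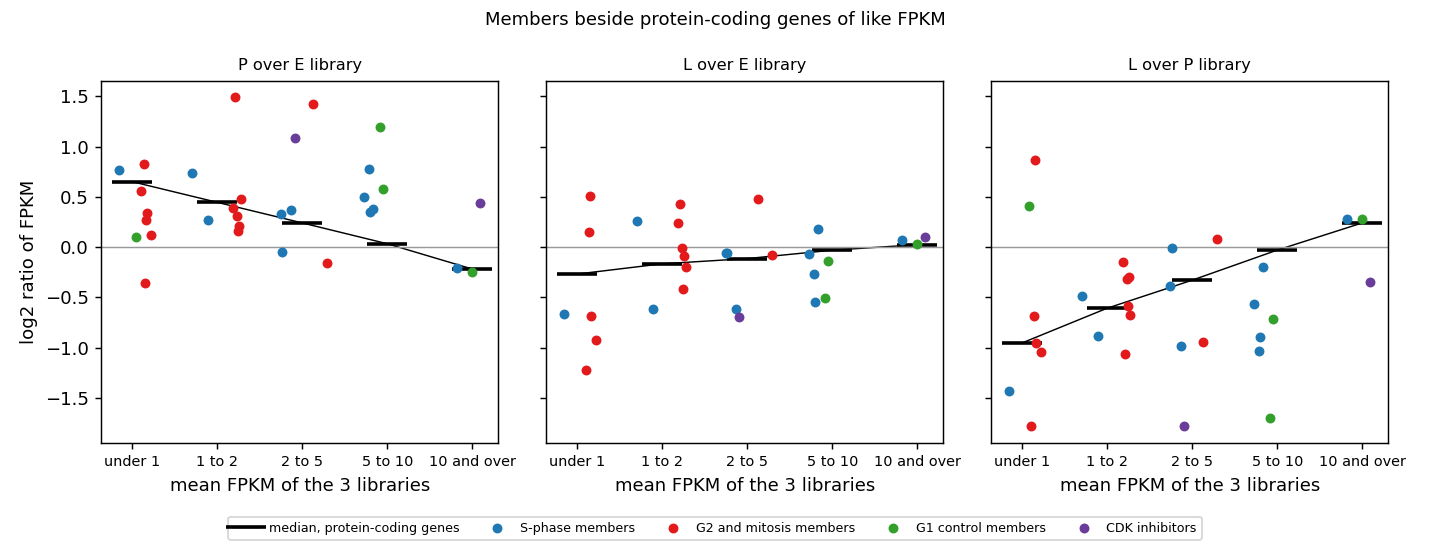
Log2 ratio of FPKM for P over E, L over E and L over P, by bin of the mean FPKM of the 3 libraries, with 1 point per member coloured by role and black bars for the median of protein-coding genes in each bin. The bars fall from 0.65 to -0.22 for P over E and rise from -0.95 to 0.24 for L over P, the mitotic points scatter around them, and in the bin of 5 to 10 all 6 points for L over P lie below the bar.

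Other genes of the same processes gave a mixed picture. Of 33 further S-phase genes 27 had values, of 46 further genes of G2 and mitosis 22, and of 27 further genes of G1 control, the RB and E2F families and arrest 22. Between P and L, 2 of the 27 further S-phase genes were at least 2-fold lower in L and 1 was higher, and the median log2 ratio was -0.14 beside -0.57 for the members. The further S-phase genes did not show the difference of the members from their bins: for L over P, 15 lay above and 12 below the bin median. Of the 22 further mitotic genes, 12 were at least 2-fold lower in L than in P, 2 of them listed at 0 in L, and 3 were at least 2-fold higher, beside 17.4% and 8.56% of protein-coding genes. By bin of mean FPKM, 8 of the 11 under 1 and 3 of the 5 from 1 to 2 were at least 2-fold lower in L, beside the shares of 56.4% and 36.0% of protein-coding genes given above. Between E and P, 6 of these 22 were at least 2-fold higher in P and 3 at least 2-fold lower, beside 10.9% and 6.80% of protein-coding genes. Of the 22 genes of G1 control and arrest, 4 (18.2%) were at least 2-fold lower in L than in P and 0 higher, a share near the 17.4% of protein-coding genes.

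Named by size of ratio among genes of at least 1 FPKM in both libraries, some of these went against the members. CDCA3, a trigger of the degradation of a mitotic inhibitor, had 6.09 FPKM in the E, 1.09 FPKM in the P and 6.77 FPKM in the L library, a log2 ratio of -2.48 for P over E and 2.64 for L over P. MYBL2, a partner of the complex that turns on mitotic genes, had 4.95, 2.047 and 4.98 FPKM. Both had their lowest value in P. ORC6, a subunit of the origin recognition complex, was highest in L, with 2.48, 1.93 and 4.84 FPKM and a log2 ratio of 0.96 for L over E and 1.33 for L over P. CDK2, the partner of cyclins E and A, was next for L over E, with 2.86, 2.77 and 3.73 FPKM.

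Others were lower in L than in P, as most members were. LMNB1, a lamin of dividing cells, had 3.68, 6.39 and 2.43 FPKM, log2 ratios of 0.79 for P over E and -1.397 for L over P. CDKN2C, an inhibitor of the cyclin D kinases, had 3.02, 5.60 and 3.06 FPKM. Both were highest in P. LIG1, the ligase of the lagging strand, had 3.97, 4.82 and 2.14 FPKM, and MYC, a driver of growth and division, had 8.79, 6.60 and 4.59 FPKM, with log2 ratios for L over E of -0.89 and -0.94.

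**Figure D4:**
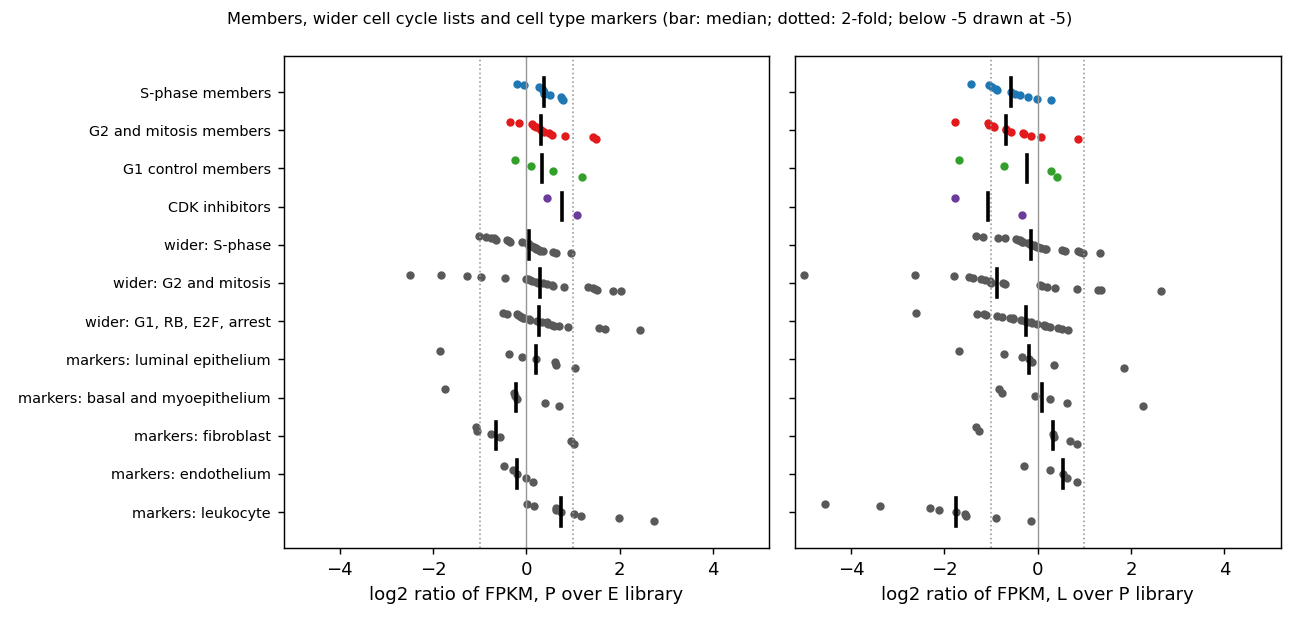
Log2 ratio of FPKM for P over E (left) and L over P (right), 1 point per gene above 0 in both libraries, for the members by role, the wider cell cycle lists and the cell type markers, with a black bar at each median. The leukocyte markers have a median of 0.74 on the left and -1.76 on the right, beside 0.32 and -0.67 for the mitotic members.

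Leukocyte markers were ordered as most members were. All 10 had values, and their summed FPKM was 99.7 in the E, 172 in the P and 55.7 in the L library. All 9 that were above 0 in every library had the order P over E over L, against 30.3% of protein-coding genes. Between P and L, 8 of the 10 differed at least 2-fold, 7 of them lower in L. For protein-coding genes the shares were 17.4% lower and 8.56% higher. PTPRC, the common leukocyte antigen CD45, had 17.6, 39.9 and 8.08 FPKM, and CD79B, of the B cell receptor, had 1.08, 7.22 and 0.308 FPKM. CD3E, of the T cell receptor, was listed at 0 in E and P and had 1.43 FPKM in L, while CD2, also of T cells, had 6.25, 12.6 and 1.21 FPKM.

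In the other marker lists the order differed from gene to gene. P over E over L was seen for 2 of 7 luminal epithelial, 2 of 6 basal, 2 of 6 fibroblast and 0 of 5 endothelial markers, against 9 of 9 leukocyte markers above 0 in all libraries. The sum of 7 luminal epithelial markers was 1653 FPKM in E, 1141 FPKM in P and 1574 FPKM in L, so that it was lowest in P. ELF5, a factor of milk-secreting cells, had 879, 244 and 875 FPKM, a wider gap than that of the sum. Without ELF5 the other 6 summed to 774, 897 and 699 FPKM, the order of most members, and 4 of the 7 were highest in P, with a median log2 ratio of 0.20 for P over E. The sums were 260, 255 and 264 FPKM for 6 basal markers, 664, 549 and 542 FPKM for 6 fibroblast markers, and 123, 111 and 135 FPKM for 5 endothelial markers. No erythroid marker had a matched row. The part of these cell types in the levels of the members was not tested.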

How the data were processed

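Total RNA of 5 goats was pooled per stage and sequenced as paired ends from stranded libraries. The authors trimmed the reads with Trimmomatic, mapped them with TopHat2 2.0.9, built transcripts with Cufflinks 2.1.1, joined these with Cuffmerge, dropped short, single-exon and poorly covered ones, and took abundance from Cuffdiff. The table as deposited lists FPKM at 50041 loci, with a column for each library. The methods name one goat assembly for mapping and another for transcripts, and which of them the scaffolds belong to is not given in the sources used here. Of the values above 0, 43.2% had 7 significant digits, and 97.5% of those ended in 5. What this stems from is not given in the sources used here.

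Gene IDs were matched to symbols of the RefSeq gene table of ARS1.2, for names only, and rows of one gene were summed. Of 15274 loci with a single ID, 14403 were matched. No genome or promoter table was used, so the planned search for promoter motifs was not made and no sequence is shown. Ratios were taken from FPKM as deposited, with 0 set to 0.001 for counts at 2-fold, and medians were taken over genes above 0 in both libraries. The design was written for 1 library per stage, so there are no p-values. Columns of all 3 libraries were used.

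The members and lists were chosen with earlier results of these data known. All members could be named. Of the wider cell cycle lists, the 2 highest and 2 lowest ratios per comparison among genes of at least 1 FPKM in both libraries are named, except 1 gene that is not reported here. Of the marker lists, sums are given, and ELF5, PTPRC, CD79B, CD2 and CD3E were named after their values were seen. Alternatives were folds of 1.5 and 4, pseudocounts of 0.1 and 1, a minimum of 1 FPKM, centring on the median of protein-coding genes, the most abundant row of a gene, and exchange of the P and L columns. Genes listed at 0 left out, centring on 5 bins of mean FPKM, the wider lists by bin and the luminal sum without ELF5 were added after the data were seen. Counting was tested on simulated data. Python 3.11.15, numpy 2.4.6, pandas 2.3.3 and matplotlib 3.10.9 were used.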

Additional observations from a re-analysis of the deposited data

How the results depend on the processing

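No paired analysis was possible because a stage holds a single library, and there was no replicate to leave out. A change of a median was taken as moved from the second decimal on, since there is no spread to set it against.

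The number of members at least 2-fold apart was 5 between E and P, 4 between E and L and 9 between P and L. At a fold of at least 1.5 these were 9, 10 and 18. At a fold of at least 4 the numbers between E and P and between P and L were 1 and 2. With a pseudocount of 1 the numbers were 1, 0 and 2, and with at least 1 FPKM in either library 0 between E and L and 5 between P and L. These settings call fewer or more genes by their construction. Leaving out genes listed at 0 left 1 between E and L. Centring on the bin of FPKM kept the totals within 1.5 times, but the counts were no longer one-sided. Between E and P it gave 4 genes higher and 1 lower in P, and between P and L 2 higher and 5 lower in L.

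For S-phase genes the median log2 ratios of P over E, L over E and L over P were 0.33, -0.060 and -0.45 with a pseudocount of 1, and 0.39, -0.059 and -0.60 when centred on protein-coding genes. Centred on the bin of FPKM they were 0.13, -0.041 and -0.27. For mitotic genes these medians were 0.15, -0.053 and -0.29 with a pseudocount of 1, 0.31, -0.043 and -0.45 with at least 1 FPKM in either library, and 0.35, -0.061 and -0.71 when centred on protein-coding genes. Centred on the bin of FPKM, the medians of mitotic genes reversed, to -0.19, 0.079 and 0.025. The cause was not tested. Exchange of the P and L columns turned the medians of S-phase genes to -0.072, 0.37 and 0.57 and those of mitotic genes to -0.074, 0.32 and 0.67, by its construction. Using the most abundant row of a gene changed 0 of these results. The search for promoter motifs and its alternative were not run. The depth behind each FPKM is unknown, which limits the genes under 1 FPKM most.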
